A study of Mus musculus with 11 samples.

Results

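The genes of iron uptake, storage and export were followed in the gonadal white adipose tissue (WAT) of male C57BL/6J mice. The list was fixed by name and holds 10 genes, of which 9 were found among the 12787 genes of the expression table (Trf, Tfrc, Steap3, Slc11a2, Slc11a1, Fth1, Ftl1, Aco1 and Ireb2). Slc40a1, which encodes the iron exporter ferroportin, was not analysed here, so nothing is said of export through it. All mice ate a 60% high fat diet (HFD). The 5 HFD control mice (mice 2 to 6) received the diet alone and are labelled as vehicle, and the 6 IMC-treated mice (mice 7 to 12) received it with 0.06% w/w iodomethylcholine (IMC), a small molecule that blocks the choline TMA lyase of gut bacteria. The authors dropped 1 further vehicle sample on quality grounds. The paper reports that HFD-fed mice given IMC gained less weight and had less fat mass, so the groups may differ in adiposity. Body weight was not used here. Each mouse gave 1 RNA library. Values are log2 CPM, the log2 of read counts scaled to the size of the library, and a positive log2 fold change means a higher level in IMC-treated mice.

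Iron enters most cells bound to transferrin (Trf), which the transferrin receptor (Tfrc) carries into endosomes. There Steap3 reduces the iron, and Slc11a2 (DMT1) moves it to the cytosol. Spare iron is held in ferritin, a shell of heavy (Fth1) and light (Ftl1) chains. Slc11a1 (NRAMP1) carries iron and other divalent metals out of the phagosomes of macrophages, cells that take up dying cells and recycle their iron. The iron regulatory proteins encoded by Aco1 (IRP1, also the cytosolic aconitase) and Ireb2 (IRP2) bind hairpins called iron-responsive elements when iron is low. Bound to the 5′ UTR of the ferritin mRNAs they block translation, and bound to the 3′ UTR of the Tfrc mRNA they protect the message from decay. Adipose tissue macrophages are known to take up and store iron, and adipocytes need iron for their mitochondria.

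The hairpins that tie ferritin and Tfrc to the same regulators are shown because these transcripts are set against each other later in the text. Reference transcripts of GENCODE M21 (GRCm38, the same build as mm10) were searched on the transcript strand for the letters CNNNNNCAGTGN, a bulged C, an arm of 5 bases and the loop, followed by an arm of 5 bases that pairs with the first, G-U pairs allowed. Of the longest coding transcripts of 21877 genes, 65.6% held the letters and 1.24% held them with the paired arms. The search found 1 match in the 5′ UTR of Fth1 (chr19:9982733-9982759, plus strand), 1 in the 5′ UTR of Ftl1 (chr7:45459780-45459806, minus strand) and 4 in the 3′ UTR of Tfrc. The Tfrc matches lie on the plus strand at chr16:32631220-32631246, chr16:32631599-32631625, chr16:32631664-32631690 and chr16:32631711-32631737. Each is printed as 27 bases of the mRNA with the 6 loop bases in capitals, T standing for U.
Fth1: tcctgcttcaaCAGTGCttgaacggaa
Ftl1: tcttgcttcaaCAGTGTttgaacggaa
Tfrc element 1: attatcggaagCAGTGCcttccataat
Tfrc element 2: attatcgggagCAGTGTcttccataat
Tfrc element 3: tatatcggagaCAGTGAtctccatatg
Tfrc element 4: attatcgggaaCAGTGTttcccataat
A match is a description of the letters, and binding was not measured.

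In IMC-treated mice, ferritin and the phagosomal transporter fell, the regulator Aco1 rose, and the receptor Tfrc was not called. Slc11a1 was lower at 0.636 times the HFD control level, Ftl1 at 0.642 times and Fth1 at 0.682 times, while Aco1 was higher at 1.26 times. Of the 9 genes, 1 was higher (Aco1) and 4 were lower (Slc11a1, Ftl1, Fth1 and Steap3) at a Benjamini-Hochberg adjusted p under 0.05 by limma over all 12787 genes. Over all genes 20.0% were higher and 21.0% lower by this rule, 40.9% in either direction. The groups did not overlap for Aco1 (12.5% of all genes were higher without overlap) or for Slc11a1 and Ftl1 (10.5% were lower without overlap). The median log2 fold change was -0.09 over the 9 genes and -0.03 over all genes. Each mouse counts as 1 replicate, so p-values set the group difference against the spread between these mice. The labels name no sequencing batch and no cage. The paper states that mice were housed in groups, so mice that shared a cage may not be independent.

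**Figure D1:**
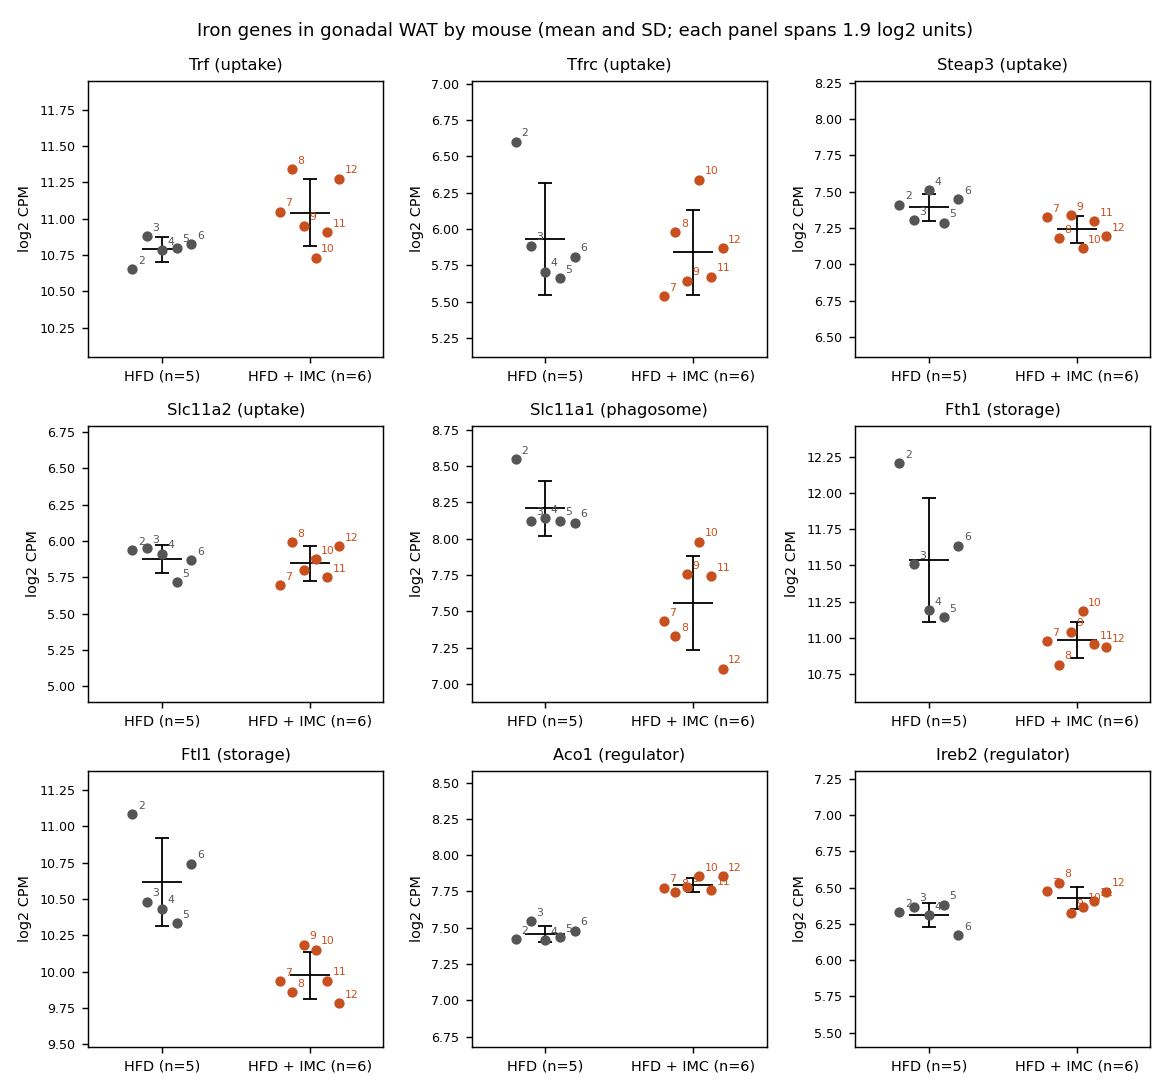
Log2 CPM of the 9 iron genes in each mouse, in a panel per gene, for 5 HFD control mice (grey) and 6 IMC-treated mice (orange), with the mouse number beside each point and the mean and SD in black; every panel spans the same height of 1.9 log2 units. Ftl1, Slc11a1 and Aco1 show no overlap between the groups, and mouse 2 is the highest HFD control mouse for Tfrc, Slc11a1, Fth1 and Ftl1.

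The level of each gene per length was calculated as CPM per kilobase of its longest coding transcript. In HFD control mice the ferritin genes were highest, with 2065 ± 664 CPM per kilobase for Fth1 and 1649 ± 368 for Ftl1 (SD, n = 5). Trf followed with 689 ± 39.4 CPM per kilobase (SD, n = 5), then Slc11a1 with 129 ± 18.4, Aco1 with 45.9 ± 1.76 and Steap3 with 32.6 ± 2.16. Ireb2 with 13.8 ± 0.769, Slc11a2 with 13.3 ± 0.852 and Tfrc with 12.9 ± 3.95 CPM per kilobase were lowest. In HFD control mice the range of Ftl1 lay above that of Trf, and the range of Slc11a1 above that of Aco1. Over the 11 mice of both groups these pairs overlapped. The ranges of Fth1 and Ftl1 overlapped, but within every mouse Fth1 was the higher by this measure. The ranges of Ireb2, Slc11a2 and Tfrc overlapped, so the order of these genes is not resolved. The longest Fth1 transcript (1494 bases) is longer than the transcript on which its hairpin was found (929 bases), and a shorter length would raise the Fth1 level. By reads the lowest genes were Tfrc, with 1064 to 2153 reads per mouse, and Slc11a2, with 1187 to 1517.

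Both storage genes fell. Ftl1 (chromosome 7 of GRCm38.p6, 45457944 to 45459886) had 11.08, 10.48, 10.43, 10.33 and 10.74 log2 CPM in HFD control mice 2 to 6. In IMC-treated mice it ranged from 9.78 to 10.18 with a median of 9.93. Every IMC-treated mouse lay below every HFD control mouse. The log2 fold change of Ftl1 was -0.64 (SE 0.13, 95% confidence interval -0.91 to -0.37, adjusted p = 0.00158 by limma). Fth1 (chromosome 19, 9980600 to 9985111) had 12.20, 11.51, 11.19, 11.15 and 11.64 log2 CPM in HFD control mice 2 to 6. Its IMC-treated mice ranged from 10.82 to 11.19, with a median of 10.97. Of these, 5 lay below the lowest HFD control mouse, and mouse 10 lay above HFD control mouse 5. The log2 fold change of Fth1 was -0.55 (SE 0.16, interval -0.90 to -0.20, adjusted p = 0.0154 by limma). HFD control mice were further apart (SD 0.43) than IMC-treated mice (SD 0.12), and mouse 2 was the highest for both chains. Ferritin genes have processed copies elsewhere in the genome, 5 of them named in the annotation and none of these analysed here. Reads that match several copies could have been lost in counting, so both levels are uncertain.

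The balance of the ferritin chains was not called different. The log2 ratio of Fth1 to Ftl1 within a mouse was 0.92 ± 0.15 in HFD control and 1.01 ± 0.10 in IMC-treated mice (mean ± SD, n = 5 and n = 6). The difference of 0.09 between the group means did not pass the test (exact permutation test, two-sided, 462 splits, p = 0.266, Benjamini-Hochberg adjusted p = 0.266 for 3 ratios). Both groups ranged widely for this ratio, from 0.76 to 1.12 in HFD control mice and from 0.86 to 1.16 in IMC-treated mice.

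Slc11a1 (chromosome 1, 74375014 to 74386057), the phagosomal metal transporter, had 8.55, 8.12, 8.14, 8.12 and 8.11 log2 CPM in HFD control mice 2 to 6. IMC-treated mice ranged from 7.10 to 7.98, with a median of 7.59. All 6 IMC-treated mice were below all HFD control mice, and their values were more spread out, with mouse 12 lowest and mouse 10 highest. The log2 fold change was -0.65 (SE 0.14, interval -0.95 to -0.35, adjusted p = 0.00268 by limma). The 3 genes whose log2 CPM was most like that of Slc11a1 over the 11 mice were Kcnab2 (Pearson r = 0.991), Myo1g (r = 0.990) and Lyz2 (r = 0.989), the last encoding the lysozyme of macrophages and other myeloid cells. After centring on the group means, r was 0.975 for Kcnab2, 0.974 for Myo1g and 0.970 for Lyz2, so mice of the same group that were higher for Slc11a1 were also higher for these genes. These r are descriptions of the closest genes picked out of all genes in the same libraries.

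Macrophage markers also fell in IMC-treated mice. Of 12 macrophage markers, 10 were lower and 0 higher by limma, where 21.0% of all genes were lower, and the median log2 fold change of the markers was -0.61. Adgre1 (F4/80) had a log2 fold change of -0.58, Cd68 of -0.61 and Csf1r, the receptor of colony stimulating factor 1, of -0.32, each with an adjusted p under 0.05 by limma. Mrc1 (-0.24) and Cd163 (0.27) were not called. The summed CPM of the 12 genes was between 13630 and 17820 in HFD control mice, highest in mouse 2, and between 7352 and 11350 in IMC-treated mice, highest in mouse 10 and lowest in mouse 12. Gpnmb and Lyz2 had the highest CPM and weigh most in the sum, and Lyz2 is also among the genes most like Slc11a1. Mouse 2 was the highest HFD control mouse for Gpnmb (12.48 log2 CPM), Lyz2 (12.26) and Cd68 (10.37). For Adgre1 it was below mouse 4 (9.77 against 10.07), and for Cd163 it was the lowest (4.87). Mouse 2 was also the highest HFD control mouse for Slc11a1, Fth1 and Ftl1, and mouse 10 the highest IMC-treated mouse for Slc11a1 and Fth1. The order was not the same throughout: HFD control mouse 6 had the lowest macrophage sum (13630) and the second highest Fth1 (11.64) and Ftl1 (10.74), mouse 4 had the second highest sum (16040) with 11.19 log2 CPM of Fth1, and the highest IMC-treated mouse for Ftl1 was mouse 9 (10.18). The part of macrophage content in the fall of ferritin and Slc11a1 was not tested. In whole tissue, fewer cells of a type and less RNA per cell cannot be told apart.

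**Figure D2:**
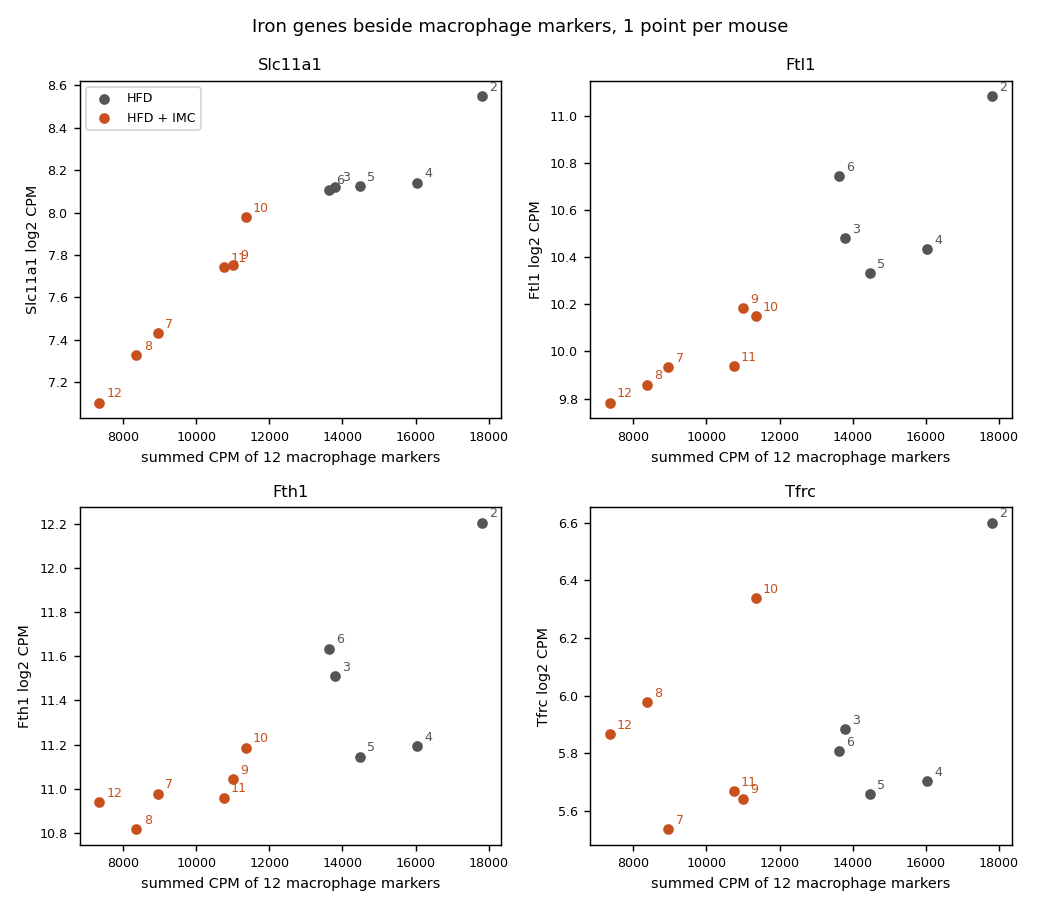
Log2 CPM of Slc11a1, Ftl1, Fth1 and Tfrc (y axes) against the summed CPM of 12 macrophage markers (x axes), with 1 numbered point per mouse, HFD control in grey and IMC-treated in orange. The macrophage sum runs from 7352 to 11350 in IMC-treated and from 13630 to 17820 in HFD control mice, and the highest mouse on the x axis, mouse 2, is also the highest for all 4 genes. Gpnmb and Lyz2, the markers with the highest CPM, weigh most in the sum.

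Adipocyte markers moved in the other direction. All 10 of them had values in IMC-treated mice above those of all HFD control mice, 9 were higher by limma and 1, Lpl, was not called. Of all genes 12.5% were higher without overlap and 20.0% were higher by limma. Adipoq (adiponectin) had a log2 fold change of 1.18 and Plin1, a lipid droplet coat protein, of 0.84. The summed CPM of the 10 genes was between 19400 and 24070 in HFD control mice and between 29760 and 34630 in IMC-treated mice. Of 6 fibroblast and progenitor markers 4 were lower and 0 higher, of 6 endothelial markers 1 was higher and 0 lower, and of 3 mesothelial markers 1 was lower and 0 higher. The called share was 66.7% for fibroblast and progenitor, 16.7% for endothelial and 33.3% for mesothelial markers. The last 2 shares are below the 40.9% called over all genes. The 3 striated muscle markers found were all higher, with summed CPM between 16.3 and 25.4 in HFD control mice and between 38.5 and 68.5 in IMC-treated mice. The red blood cell genes of the marker list (9 symbols), including the globins, were not analysed here, so blood content of the tissue is not known.

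Of the mRNAs of the hairpin regulators, Aco1 rose and Ireb2 was not called. Aco1 (chromosome 4, 40143265 to 40199009) had 7.42, 7.54, 7.41, 7.43 and 7.48 log2 CPM in HFD control mice 2 to 6 and ranged from 7.74 to 7.86, with a median of 7.78, in IMC-treated mice. The groups lay apart, and both were narrow, with an SD of 0.05. The log2 fold change was 0.34 (SE 0.04, interval 0.25 to 0.42, adjusted p = 7.64e-05 by limma). The adipocyte marker sum given above was also higher in IMC-treated mice, and its part in the rise of Aco1 was not tested. Ireb2 (chromosome 9, 54862658 to 54912534) had 6.33, 6.37, 6.31, 6.38 and 6.17 log2 CPM in HFD control mice 2 to 6. In IMC-treated mice Ireb2 ranged from 6.33 to 6.53, with a median of 6.44. The groups overlapped, with 4 of 6 IMC-treated mice above the highest HFD control mouse. Its log2 fold change of 0.12 did not pass the threshold (SE 0.05, interval 0.01 to 0.23, adjusted p = 0.0815 by limma).

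Relative to Aco1 mRNA, Ireb2 mRNA was lower in IMC-treated mice, with Aco1 called higher and Ireb2 not called. Protein of the regulators was not measured. The log2 ratio of Ireb2 to Aco1 within a mouse, which does not depend on library scaling, was -1.15 ± 0.10 in HFD control and -1.36 ± 0.10 in IMC-treated mice (mean ± SD, n = 5 and n = 6). The groups overlapped through HFD control mouse 6 (-1.31) and IMC-treated mice 7 (-1.30) and 8 (-1.21). The difference of -0.22 between the group means passed the test (exact permutation test, two-sided, p = 0.0130, adjusted p = 0.0195 for 3 ratios).

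Among the uptake genes, Tfrc (chromosome 16, 32608896 to 32632794) showed no difference beyond its spread. It had 6.60, 5.88, 5.70, 5.66 and 5.81 log2 CPM in HFD control mice 2 to 6, and IMC-treated mice ranged from 5.54 to 6.34 with a median of 5.77. Mouse 2 and mouse 10 stood above the others of their groups, and the groups overlapped almost fully. The log2 fold change was -0.09 (SE 0.17, interval -0.46 to 0.28, adjusted p = 0.697 by limma), and without mouse 2 it was 0.075 (adjusted p = 0.687 by limma). This interval leaves room for changes of either sign. The genes most like Tfrc over the 11 mice were Wfdc17 (Pearson r = 0.938), Gng12 (r = 0.898) and Ak1 (r = 0.894), and none of these was called by limma.

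Relative to Fth1 mRNA, Tfrc mRNA was higher in IMC-treated mice. Of this pair, Fth1 was lower (log2 fold change -0.55) and Tfrc was not called (-0.09). Protein was not measured. The log2 ratio of Tfrc to Fth1 was -5.61, -5.63, -5.49, -5.49 and -5.83 in HFD control mice 2 to 6. It ranged from -5.44 to -4.84 in IMC-treated mice, with no overlap between the groups. The mean was -5.61 ± 0.14 in HFD control and -5.15 ± 0.27 in IMC-treated mice (SD, n = 5 and n = 6). The difference of 0.46 passed the test (exact permutation test, two-sided, p = 0.00649, adjusted p = 0.0195 for 3 ratios). It largely restates the fall of Fth1 mRNA in the same mice and is not separate evidence. The ratio does not measure the activity of the regulators, which act on the translation of ferritin. The part of the lower macrophage marker sum in this ratio was not tested. Tfrc and Fth1 were each highest in mouse 2 among HFD control mice and in mouse 10 among IMC-treated mice, and in the ratio mouse 2 lay within the range of the other HFD control mice. The planned ratio of Tfrc to Slc40a1 was not analysed here.

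**Figure D3:**
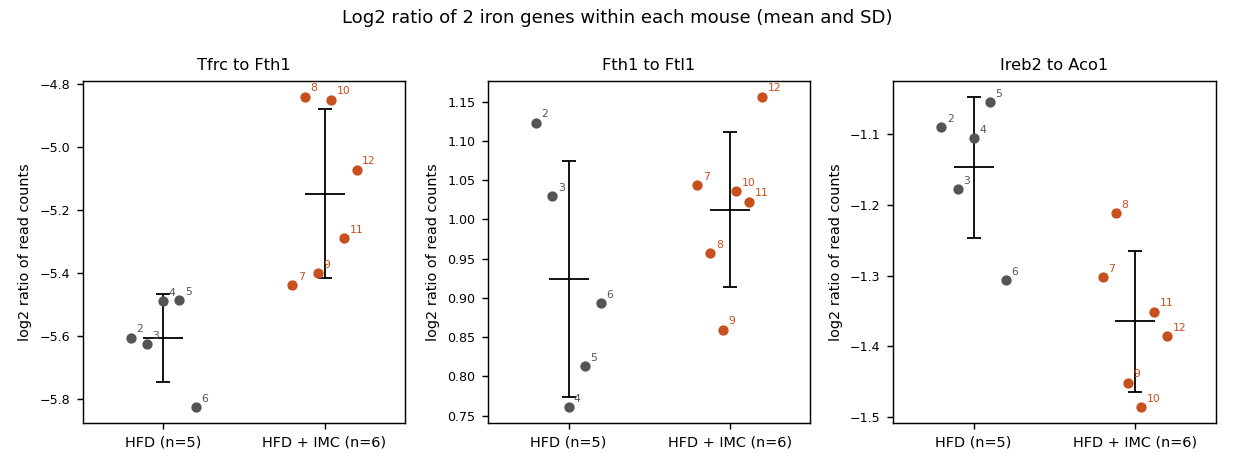
Log2 ratio of read counts of a pair of iron genes within each mouse (y axes), not corrected for transcript length, for 5 HFD control mice (grey) and 6 IMC-treated mice (orange), with mouse numbers, mean and SD. Tfrc to Fth1 runs from -5.83 to -5.49 in HFD control and from -5.44 to -4.84 in IMC-treated mice, Ireb2 to Aco1 is lower by 0.22 on average in IMC-treated mice with some overlap, and Fth1 to Ftl1 overlaps widely.

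Trf (chromosome 9, 103208876 to 103230286), which encodes transferrin, had 10.65, 10.88, 10.78, 10.80 and 10.83 log2 CPM in HFD control mice 2 to 6. In IMC-treated mice 7 to 12 it had 11.05, 11.34, 10.95, 10.73, 10.91 and 11.27 log2 CPM. Of these, 5 were above the highest HFD control mouse, and mouse 10 was within the control range. The log2 fold change of 0.25 did not pass the threshold (SE 0.11, interval 0.02 to 0.48, adjusted p = 0.0743 by limma). Without mouse 10 it was 0.32 with an adjusted p of 0.0224 by limma, which made the number of higher genes 2. Transferrin is made mainly by the liver, and of the 4 hepatocyte markers Alb, Ttr and Apoh were not called while Apoa1 was higher (log2 fold change 0.26). The summed CPM of these 4 genes overlapped, from 101 to 112 in HFD control mice and from 101 to 136 in IMC-treated mice, and their part in the Trf level was not tested. The genes most like Trf over the 11 mice were Sdr39u1 (Pearson r = 0.981), Ddo (r = 0.977) and Pacsin3 (r = 0.975). Of these, Sdr39u1 and Ddo were higher by limma, Sdr39u1 with a log2 fold change of 0.51.

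Steap3 (chromosome 1, 120226414 to 120271081), the endosomal ferrireductase, had 7.41, 7.30, 7.51, 7.29 and 7.45 log2 CPM in HFD control mice 2 to 6, and IMC-treated mice ranged from 7.11 to 7.34. The groups overlapped, with 3 of 6 IMC-treated mice below the lowest HFD control mouse. Its log2 fold change was -0.15 (SE 0.06, interval -0.27 to -0.03, adjusted p = 0.0471 by limma). This call was at the edge: the adjusted p was 0.0666 without the variance trend and 0.0508 by limma voom, and it was lost in 7 of the 11 fits that each left out a mouse (mouse 2, 4, 6, 8, 10, 11 or 12), where it was between 0.0503 and 0.127. Slc11a2 (chromosome 15, 100387898 to 100424209), which moves iron out of the endosome, ranged from 5.72 to 5.95 log2 CPM in HFD control mice and from 5.69 to 5.99 in IMC-treated mice. The ranges lay nearly on top of each other, and the log2 fold change was -0.03 (SE 0.06, interval -0.17 to 0.11, adjusted p = 0.730 by limma). The Slc11a2 interval overlaps the gene Gm5475, and reads from one may be included in the count of the other.

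Other genes of iron handling were looked up in the same fit under 55 symbols in 6 groups, some of them older names of the same gene, and 44 genes were found. By limma 15 were higher and 8 lower, 52.3% of the 44 in either direction, where 40.9% of all genes were called. For 14 of the 44 the groups did not overlap, which held for 23.1% of all genes. Their median log2 fold change was 0.12. As given above, the adipocyte marker sum was higher and the macrophage marker sum lower in IMC-treated mice. The part of cell content in the rises and falls of these genes was not tested. Of the 23 genes of these groups named below, the intervals of 8 overlap another annotated gene (Cp, Heph, Hmox2, Blvra, Pcbp2, Slc25a37, Nfs1 and Bmp6).

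Ferroxidases, which oxidise iron so that transferrin can bind it, all rose, where 20.0% of all genes were higher by limma. Ceruloplasmin (Cp), made as a plasma or membrane-bound protein, was at 6.66 ± 0.22 log2 CPM in HFD control and 7.16 ± 0.28 in IMC-treated mice (mean ± SD, n = 5 and n = 6). It rose by 0.50 on the log2 scale (SE 0.13, adjusted p = 0.00892 by limma). Hephaestin (Heph) rose by 0.69 (SE 0.07, adjusted p = 3.50e-05 by limma), from a range of 5.88 to 6.29 log2 CPM to a range of 6.61 to 6.91. Hephl1 (zyklopen) rose by 1.19 (SE 0.13, adjusted p = 4.59e-05 by limma), a 2.28-fold increase of a low-level gene. The groups did not overlap for Heph and Hephl1.

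Of 9 genes for cell entry, reduction and endosomal traffic, 3 were higher and 3 lower, together 66.7% of the group, where 40.9% of all genes were called. Steap4, a metalloreductase of the same family as Steap3 that is prominent in adipose tissue, rose 2.13-fold, from 7.82 ± 0.18 to 8.91 ± 0.16 log2 CPM (SD, n = 5 and n = 6, adjusted p = 2.30e-05 by limma). Its groups did not overlap, in contrast to the small fall of Steap3. Snx3, which recycles the transferrin receptor to the cell surface, fell by 0.28 on the log2 scale (adjusted p = 0.00201 by limma), and Mcoln1, a cation channel of lysosomes, fell by 0.20 (adjusted p = 0.00263 by limma). Tfr2 and Scara5 were chosen after their values were seen. Tfr2, the second transferrin receptor and a sensor of iron in the liver, was at 3.81 ± 0.61 log2 CPM in HFD control and 5.20 ± 0.59 in IMC-treated mice (mean ± SD, n = 5 and n = 6). Its log2 fold change of 1.39 was the largest of the 44 genes (SE 0.30, adjusted p = 0.00280 by limma), although the groups overlapped. Scara5, a receptor for ferritin, fell by 0.46 (adjusted p = 0.0165 by limma).

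Of 9 genes for heme and hemoglobin iron, 4 were lower, 1 was higher and 4 were not called, with a median log2 fold change of -0.17. The called share was 55.6%, where 40.9% of all genes were called. The lower genes were the heme oxygenases Hmox1 and Hmox2, which release iron from heme, and the biliverdin reductases Blvra and Blvrb, which act on the product of that step. Blvrb fell by 0.78 (SE 0.13, adjusted p = 0.000589 by limma), from 7.22 ± 0.35 to 6.44 ± 0.13 log2 CPM (SD, n = 5 and n = 6), with no overlap. Hmox2 fell by 0.27 (SE 0.05, adjusted p = 0.00146 by limma). Hmox1 and Blvra were chosen after their values were seen. Hmox1, which macrophages express when they take up heme, fell by 0.69 (SE 0.20, adjusted p = 0.0143 by limma). The groups overlapped, from 8.33 to 9.59 log2 CPM in HFD control and from 7.80 to 8.53 in IMC-treated mice. The 9.59 was from mouse 2, and without mouse 2 the log2 fold change of Hmox1 was -0.48 (adjusted p = 0.0159 by limma). Blvra fell by 0.24 (adjusted p = 0.00416 by limma). These falls stood beside the lower macrophage sum given above, and its part in them was not tested. Haptoglobin (Hp), which binds free hemoglobin and is secreted by fat, rose by 1.31 (SE 0.18, adjusted p = 0.000147 by limma), from a range of 11.53 to 12.43 to a range of 12.87 to 13.52 log2 CPM.

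Of 4 genes for iron chaperones, ferritin turnover and control of the regulators, 1 was higher (25.0%, below the 40.9% called over all genes) and 0 lower. That gene was Fbxl5, the iron-sensing subunit of the ubiquitin ligase that removes IRP2, at 7.04 ± 0.08 log2 CPM in HFD control and 7.43 ± 0.14 in IMC-treated mice (mean ± SD, n = 5 and n = 6). It rose by 0.40 on the log2 scale (SE 0.07, adjusted p = 0.000517 by limma), and the groups did not overlap. The chaperones Pcbp1 and Pcbp2, which hand iron to ferritin, had log2 fold changes of -0.14 (adjusted p = 0.0692 by limma) and -0.13 (adjusted p = 0.0527 by limma), and neither passed. These calls depended on the setting. Both passed by total-count scaling, at -0.17 and -0.16, and without mouse 7, at -0.16 and -0.14. Pcbp2 also passed by scaling to equal medians (-0.13) and without mouse 3 (-0.15) or mouse 12 (-0.15).

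Of 15 genes for mitochondrial iron, iron-sulfur clusters and heme synthesis, 5 were higher and 1 lower, together 40.0% of the group, close to the 40.9% called over all genes. Fech, which inserts iron into protoporphyrin to form heme, was at 6.28 ± 0.02 log2 CPM in HFD control and 6.56 ± 0.05 in IMC-treated mice (mean ± SD, n = 5 and n = 6). It rose by 0.28 (SE 0.04, adjusted p = 0.000130 by limma) with no overlap. Nfs1, the cysteine desulfurase of cluster assembly, rose by 0.25 (adjusted p = 0.00157 by limma), and Iscu, the scaffold on which clusters are built, by 0.35 (adjusted p = 0.00253 by limma). The lower gene, chosen after its value was seen, was Slc25a37 (mitoferrin 1), an importer of iron into mitochondria, which fell by 0.30 (adjusted p = 0.00312 by limma).

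For hepcidin and its control 4 genes were found under 10 symbols, some of them older names of the same gene, and hepcidin itself (Hamp) was not analysed here. Hfe, a membrane protein that binds the transferrin receptors, rose by 0.42 (SE 0.06, adjusted p = 0.000219 by limma), from a range of 6.89 to 7.13 to a range of 7.26 to 7.55 log2 CPM. Bmp6, a ligand that induces hepcidin in the liver, rose by 0.42 (SE 0.13, adjusted p = 0.0202 by limma) at a low level of 2.85 log2 CPM in HFD control mice, and its call was lost without mouse 2 (adjusted p = 0.0537 by limma) or mouse 5 (adjusted p = 0.0527 by limma). Tmprss6, a protease that restrains hepcidin and was near 0 log2 CPM in HFD control mice, had a log2 fold change of 0.43 that did not pass (SE 0.26, adjusted p = 0.208 by limma), and without mouse 11 it was 0.66 and passed (adjusted p = 0.0137 by limma).

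**Figure D4:**
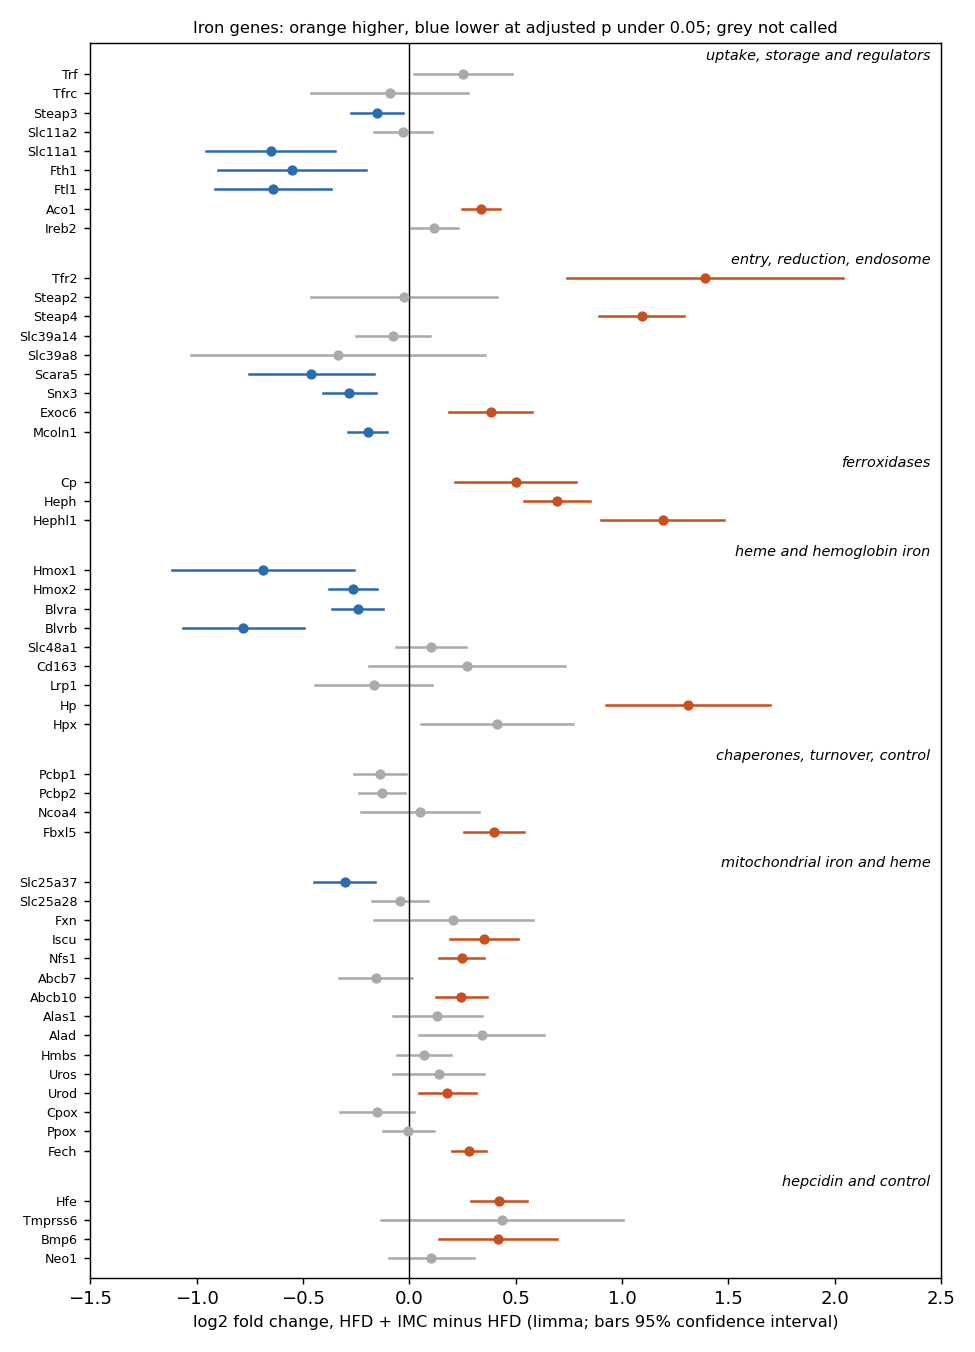
Log2 fold change (x axis, IMC-treated minus HFD control, limma) with its 95% confidence interval for the 9 iron genes of the list and the 44 other iron genes found, grouped by role, orange where higher and blue where lower at an adjusted p under 0.05 and grey where not called. Ferritin, Slc11a1, Hmox1, Hmox2, Blvra and Blvrb lie left of 0, all 3 ferroxidases, Steap4, Tfr2 and Hp lie right of it, and Tfrc and Slc11a2 straddle it.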

How the data were processed

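RNA from gonadal WAT was sequenced from directional mRNA libraries. The authors used Trim Galore for trimming and STAR for alignment to mm10 and for counts per gene, removed transcripts with low counts and scaled libraries by the upper quartile with edgeR. The deposited table holds log2 CPM per mouse. It also holds columns of the authors' comparison, not used here: log2 fold change and mean level, a likelihood-ratio score, and the p-value and FDR as deposited by the authors.

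Groups came from the sample labels. Genes were compared with limma 3.58.1 in R 4.3.3 (lmFit, eBayes with trend) on the deposited log2 CPM, with no further filter, and Benjamini-Hochberg adjustment over all 12787 genes. For ratios, the difference of means was tested by exact permutation (two-sided). In every mouse 100% of values were whole read counts (within 0.05 reads) plus a constant near 0.25, giving 22320022 to 25155366 reads on the listed genes per mouse. These reads gave the depth and entered alternatives (limma voom among them), and the study's own count test was not run on them. Strand setting of the count is not given in the sources used here. Positions came from RefSeq GRCm38.p6 and hairpins from GENCODE M21.

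The members, gene lists and tests were chosen with earlier results of these data known. Named genes were all members, the 3 lowest p in every one of 6 iron gene groups, the 3 genes most like Tfrc, Slc11a1 and Trf by Pearson r, and selected markers, with later choices marked in the text. Alternatives were another scaling, a filter on low values, an added constant of 2 reads, other variance models and leaving out each mouse. On simulated data for this comparison with 12787 genes, limma called 95% of genes changed by 1 and 76% of genes changed by 0.5 on the log2 scale, and 6.56% of its calls were unchanged genes. The simulation changed only 100 genes at each size and drew the noise of each gene independently. In the measured data 40.9% of all genes were called, so the simulated rates may not hold for them.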

Additional observations from a re-analysis of the deposited data

Results flagged for a closer look

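In 70 groups of values, taken from the named iron genes and the ratios in each group of mice, 6 had a mouse far from the others, where chance gives about 1 in 20. HFD control mouse 2 was highest for Tfrc, with 6.60 log2 CPM where the other HFD control mice had 5.66 to 5.88, and for Slc11a1, with 8.55 where the others had 8.11 to 8.14. IMC-treated mouse 7 was highest for Steap4, with 9.23 log2 CPM against 8.78 to 8.92 in the others. HFD control mouse 5 was highest for Scara5, with 7.76 against 7.47 to 7.53. IMC-treated mouse 10 was highest for Hmox1, with 8.53 against 7.80 to 8.07. HFD control mouse 3 was lowest for Blvra, with 6.58 against 6.73 to 6.78. Scara5, Hmox1 and Blvra entered these groups after their values were seen.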

How the results depend on the processing

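The calls of Aco1, Slc11a1, Ftl1 and Fth1 were kept with their direction under all 6 alternatives of scaling, filter, constant and variance model and when any one of the 11 mice was left out. Steap3 had a log2 fold change of -0.15 without the variance trend and by limma voom, no longer past the threshold, and ranged from -0.18 to -0.12 with a mouse left out. With a mouse left out, Tfrc ranged from -0.19 to 0.075 (above 0 without mouse 2), Trf from 0.19 to 0.32, and the number of higher members from 1 to 2. Between 4299 and 5125 of all genes were called in these fits, against 5236 with all mice. The ratio of Tfrc to Fth1 stayed between 0.40 and 0.52 and that of Ireb2 to Aco1 between -0.26 and -0.19, each past the threshold. Total-count scaling moved the median log2 fold change of all genes from -0.03 to -0.06. The mouse numbers do not repeat between the groups, so no paired analysis was possible because no number is shared. Whole-tissue RNA and 5 mice against 6 limit what small changes can be seen.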
